A study of Mus musculus with 8 samples.

Results

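Livers of wild-type mice injected with diethylnitrosamine (DEN) as infants were compared with livers of untreated wild-type mice. The comparison uses the 4 libraries labelled DEN_WT and WT, 2 of each, of 8 libraries in the series, and was read over 14935 tested protein-coding genes, with 1292 pseudogenes kept apart. All mice were C57BL6/CBA and 8 months old. The DEN_WT mice were wild type and received DEN intraperitoneally on postnatal day 15, at a dose labelled 25 ml per kg with no concentration. The WT mice were wild type, and their labels name no injection of a vehicle. The other 4 libraries, labelled PR-SET7_LOBE, come from mice of the genotype PR-SET7_LX_ALB_CRE, in which the albumin promoter drives Cre in hepatocytes to inactivate a histone methyltransferase. They entered the fit to share its estimate of the spread, and so also took part in the count filter, the scaling and the adjustment of p-values. With them 17362 genes were tested, against 14924 with only the WT and DEN_WT libraries. The PR-SET7_LOBE levels are given in places as a reference. The labels do not say whether the DEN_WT tissue was tumour or the liver around it, nor that replicates are different animals. The p-values therefore rest on the spread between these particular libraries, and that spread may be only technical.

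DEN is a nitrosamine that cytochrome P450 enzymes of hepatocytes turn into a DNA-alkylating agent. A dose given to infant mice, while hepatocytes still divide, leads to liver tumours months later, and these tumours often carry activating mutations in the Ras pathway. Tumours and preneoplastic foci of this model are known for the return of fetal liver genes such as Afp and H19 and for altered drug and lipid metabolism.

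The groups also differed in 2 properties of the libraries themselves. Pseudogenes took a larger share of the counts after DEN, with 2.23% and 2.60% against 1.06% and 1.57% in WT and 1.05% to 1.17% in PR-SET7_LOBE. In addition, the difference between the groups followed the GC content of the transcripts. Protein-coding genes were split by GC content into 5 bins of equal size. In the bin with the lowest GC content (31.0% to 43.8%), the median log2 fold change of DEN_WT over WT was 1.14, and 6.96% of the genes rose. The bin with the highest GC content (55.4% to 72.8%) had a median of -0.63, and 1.21% rose. Across the 14935 genes, which are not independent replicates, Spearman's rho between GC content and log2 fold change was -0.42. The correlation of log2 CPM between a DEN_WT library and any library of another group was 0.785 to 0.851. Between WT and PR-SET7_LOBE libraries it was 0.852 to 0.940. Whether the way the DEN_WT libraries were prepared or counted had a part in these differences was not tested. In this design a difference in preparation or counting that followed the groups cannot be told apart from an effect of DEN. CPM stands throughout for counts scaled to a common library size after TMM normalization (trimmed mean of M-values).

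**Figure D1:**
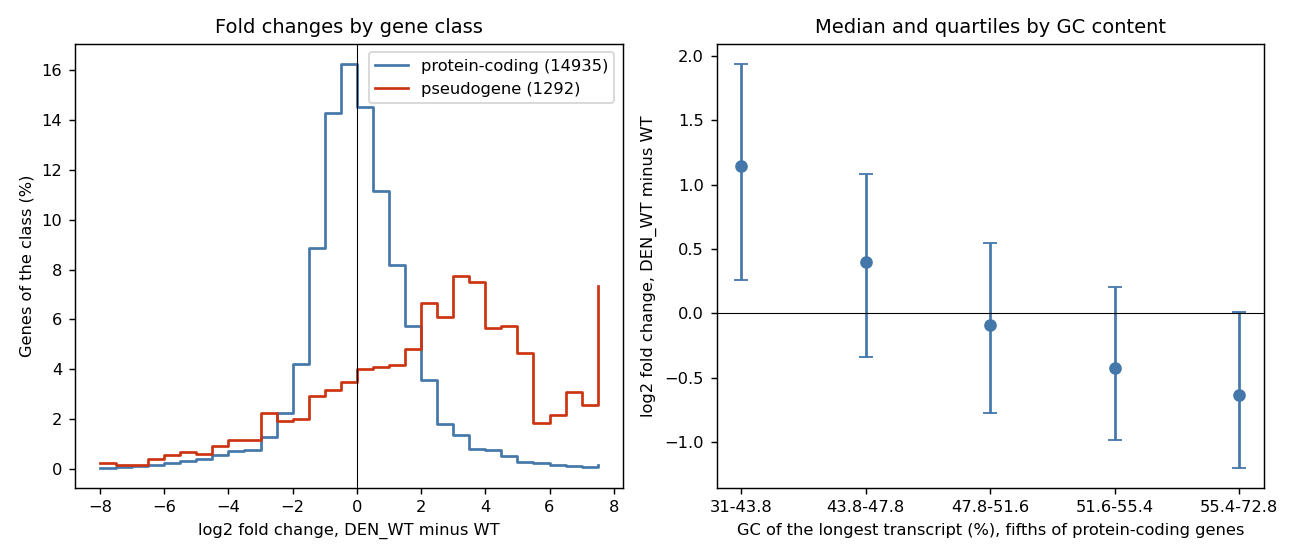
The left panel gives the percentage of protein-coding genes and of pseudogenes in each 0.5-wide bin of the log2 fold change of DEN_WT over WT, with values beyond 8 in either direction collected in the end bins. The right panel gives the median and quartiles of the log2 fold change in each of 5 equal bins of protein-coding genes by transcript GC content, which go from a median of 1.14 in the lowest bin to -0.63 in the highest.

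Of the protein-coding genes, 443 were higher in DEN_WT (2.97% of those tested) and 637 were lower (4.27%) at an adjusted p under 0.05 by edgeR's quasi-likelihood test with Benjamini-Hochberg adjustment over all 17362 tested genes. Their median transcript GC content was 44.3% for the higher, 50.2% for the lower and 49.7% for all. Among the higher genes, 147 had a WT mean under 1 CPM (33.2%, against 18.6% of all tested protein-coding genes). Of the 637 lower genes, 269 had a DEN_WT mean under 1 CPM, against 2659 of all 14935. These 269 genes, chosen by their low DEN_WT level, summed to 108.8 and 101.7 CPM in DEN_WT. Their sums were 3325.0 and 3414.7 CPM in WT and 1405.1 to 2747.4 CPM in PR-SET7_LOBE. Both DEN_WT libraries lay on 1 side of both WT libraries for 70.4% of all protein-coding genes, so a lack of overlap is by itself no mark of a gene here. The number of calls depended on single libraries. Leaving out WT replicate 1 gave 48 higher calls, WT replicate 2 gave 83, DEN_WT replicate 1 gave 91 and DEN_WT replicate 2 gave 70, against 1752 without PR-SET7_LOBE replicate 1 and 689 without PR-SET7_LOBE replicate 3. Lower calls numbered 338, 306, 193 and 153 without the same WT and DEN_WT libraries in that order, and 1803 without PR-SET7_LOBE replicate 1. With 2 libraries against 2, an exact permutation test of a single gene cannot give a two-sided p below 0.333.

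Genes were read in 40 lists by role, with 3 more added after their values were seen. Lists are described by their counts and their median log2 fold change, beside the median of all tested genes, 0.06. The counts of every list are to be read against the 2.97% of all tested protein-coding genes that rose and the 4.27% that fell. The highest medians were those of oncofetal and liver tumour markers (3.68), genes of G2 and mitosis (2.11), 5 sex-linked genes (2.01), ribosomal protein pseudogenes (1.60), ductal and progenitor markers (1.17) and stellate cell and matrix genes (1.17). The lowest were those of replication-dependent histones (-4.89), MHC class I genes (-3.73), erythroid genes (-1.95) and cytosolic ribosomal proteins (-1.21). With genes at 0 counts in a group set to their bound against 3 counts, the medians were 3.48 for oncofetal markers, 1.49 for ribosomal protein pseudogenes, 0.78 for ductal markers and -4.47 for histones, and those of the other lists named here did not move. Other settings moved some medians by more than 1.5 times: a strict count filter took G2 and mitosis to 0.98 and ductal markers to 2.31, the GC correction took the sex-linked genes to 0.80, and leaving out overlapping genes took ductal markers to 0.41. Without DEN_WT replicate 1 the medians of ductal markers and of stellate cell and matrix genes were 0.78 and 0.77. Without genes of shared sequence those of histones and cytosolic ribosomal proteins were -1.18, over the 7 histones that were left, and -0.74.

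**Figure D2:**
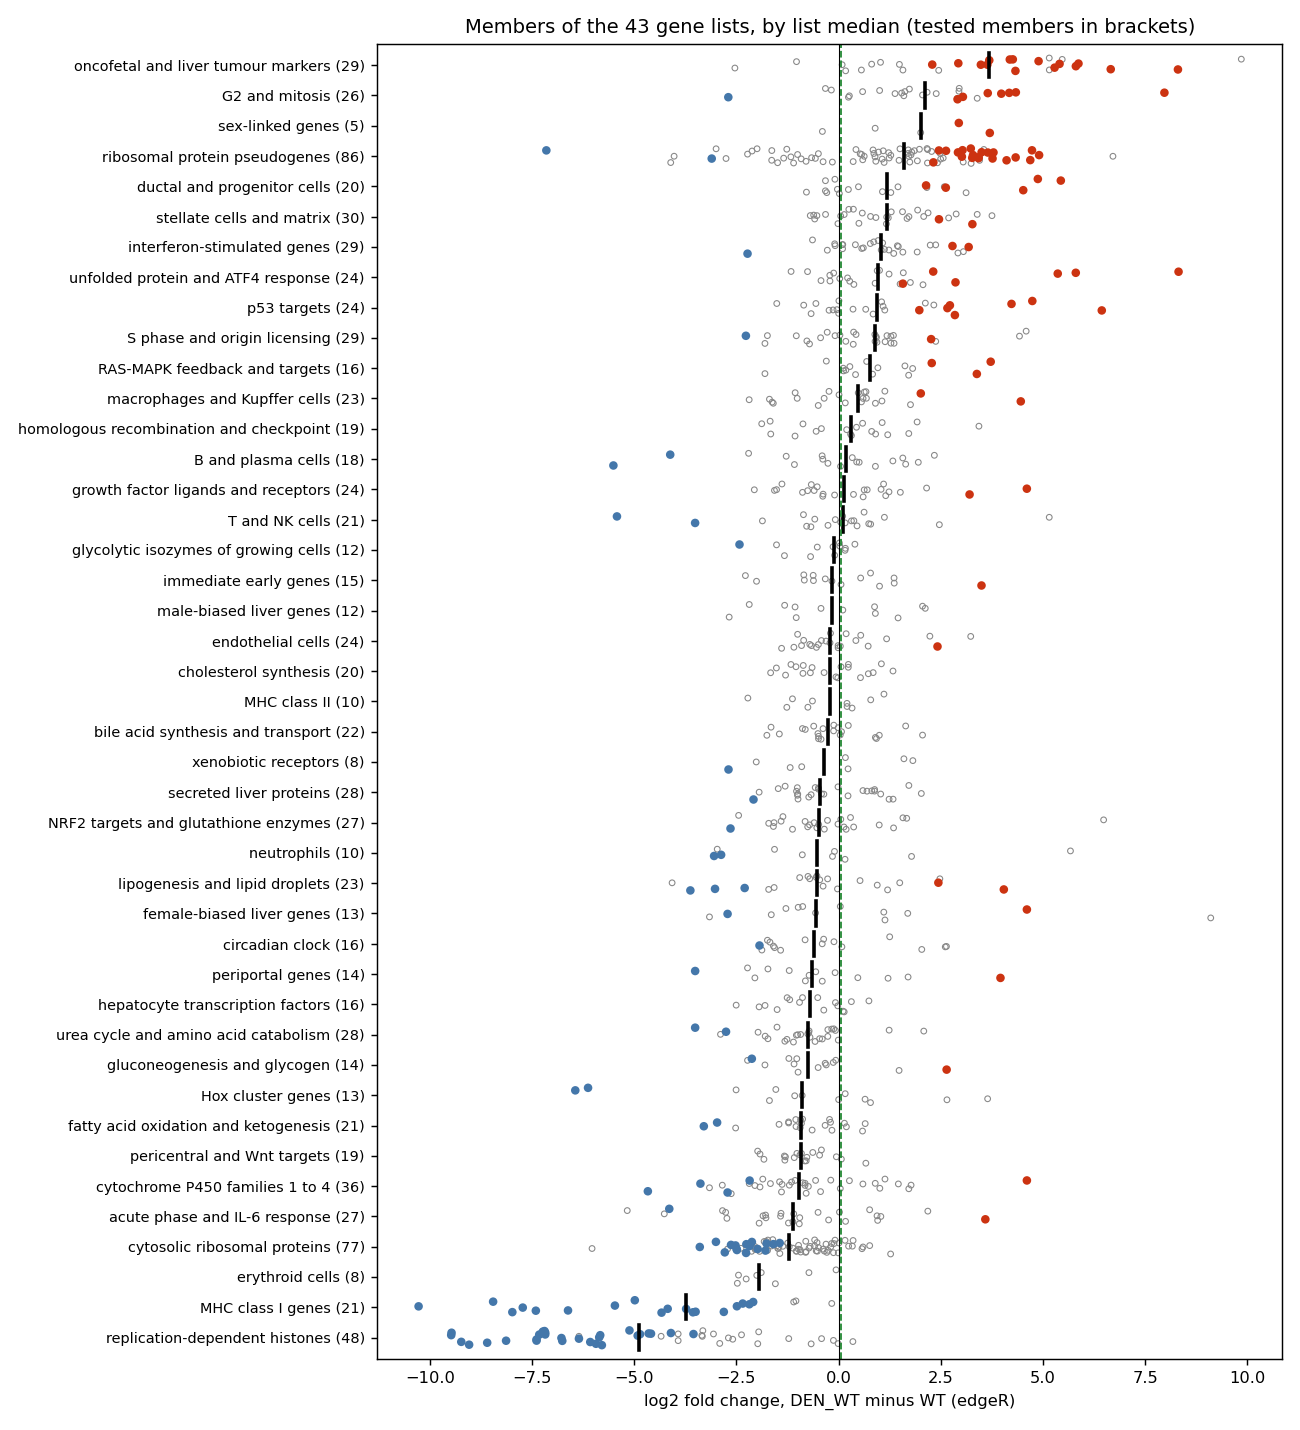
Each point is 1 tested gene of a list, placed by its log2 fold change of DEN_WT over WT, filled red where it was higher and blue where it was lower at an adjusted p under 0.05. Black bars mark list medians and the dashed green line the median of all tested genes (0.06), and the histone and MHC class I lists lie furthest to the left.

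Oncofetal and tumour-associated genes gave the highest median of any list. Of 29 listed genes, all tested, 15 rose and 14 did not pass. The glypican Gpc3, a cell-surface proteoglycan of fetal liver and hepatocellular carcinoma, was at 1.15 and 2.49 CPM in WT and 91.5 and 113 CPM in DEN_WT (log2 fold change 5.80, SE 0.65, adjusted p = 0.00166). Both DEN_WT libraries were thus far above both WT libraries and close to each other. Alpha-fetoprotein, Afp, the main serum protein of fetal liver, measured 2.49 and 2.49 CPM in WT and 102 and 109 CPM in DEN_WT, and rose (log2 fold change 5.40, SE 0.91, adjusted p = 0.00539). The tetraspanin Tspan8 went from 0 and 0.645 CPM to 58.1 and 155 CPM (log2 fold change 8.30, SE 1.00, adjusted p = 0.00175), with more spread between its DEN_WT libraries. Igdcc4, an immunoglobulin-superfamily membrane protein, rose to almost the same level in both, from 1.15 and 1.199 CPM to 45.96 and 46.3 CPM (log2 fold change 5.28, adjusted p = 0.0022). These 4 genes were near silence in WT and moderately expressed after DEN.

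The other genes of this list that rose have varied roles. The Golgi membrane protein Golm1, released into serum by diseased liver, was at 2.49 and 1.57 CPM in WT and 33.3 and 48.3 CPM in DEN_WT (adjusted p = 0.00619). The imprinted genes Peg3 and Mest rose by log2 fold changes of 3.48 and 4.26. The protease inhibitor Slpi, the calcium-binding proteins S100a11 and Anxa2, the lysosomal tetraspanin Cd63, the membrane-anchored Ly6d, and Bex1 and Bex2 made up most of the rest, with log2 fold changes between 2.29 for Anxa2 and 5.87 for Bex1. Igf2bp3, a fetal RNA-binding protein, had 0 counts in both WT libraries and 1.77 and 0.5299 CPM in DEN_WT, at least 8.16-fold higher when WT is set to 3 counts over the group. Its level stayed low even so.

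Several well-known tumour genes did not pass in the main fit. The imprinted non-coding RNA H19, silent in adult liver, was at 0.383 and 0.369 CPM in WT and 576 and 138 CPM in DEN_WT (adjusted p = 0.0538). Its partner in imprinting, the growth factor Igf2, was at 1.15 and 1.48 CPM and 10.6 and 3.798 CPM (adjusted p = 0.502), with 76.0% of its transcript windows shared with another gene. The PR-SET7_LOBE levels of Igf2, whose spread enters the fit, were 2418.6, 2030.3, 1.764 and 5.648 CPM. The trefoil peptide Tff3 was at 3.64 and 2.03 CPM and 128 and 123 CPM (adjusted p = 0.0558). For all 3 both DEN_WT libraries lay above both WT libraries. A lack of overlap in 1 direction or the other held for 70.4% of all protein-coding genes, so this order does not mark them out. Of the 15 rises among oncofetal and tumour genes, 5, 6, 8 and 8 remained without WT replicate 1, WT replicate 2, DEN_WT replicate 1 and DEN_WT replicate 2, with adjusted p up to 0.225 for Ly6d. With a GC correction Igf2bp3 was lost (adjusted p = 0.0538). Gpc3, Anxa2, Mest, Bex1 and Igf2bp3 overlap another gene of the table, and S100a11, Bex1 and Bex2 share at least 20% of their windows with another gene, so their counts are uncertain.

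Feedback and target genes of the RAS-MAPK pathway are switched on by ERK and damp or carry its signal. Of 19 listed, 16 were tested, and 3 rose. Dusp6, the cytosolic phosphatase of ERK, was at 34.3 and 22.3 CPM in WT and 89.96 and 184 CPM in DEN_WT (log2 fold change 2.28, SE 0.59, adjusted p = 0.0364). Dusp5, the nuclear ERK phosphatase, was at 2.68 and 0.922 CPM and 12.8 and 24.8 CPM (log2 fold change 3.38, SE 0.73, adjusted p = 0.0168). The ETS factor Etv4 rose from 0.191 and 0.277 CPM to 1.86 and 4.59 CPM (adjusted p = 0.0308). In all 3, DEN_WT replicate 2 was the highest library. The list median was 0.76.

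Of 24 growth factor ligands, receptors and binding proteins, 2 rose and the list median was 0.13. The secreted IGF-binding protein Igfbp1 was at 37.3 and 38.2 CPM in WT and 588 and 1248 CPM in DEN_WT (log2 fold change 4.60, SE 0.95, adjusted p = 0.0145). Betacellulin, Btc, a ligand of the EGF receptor, was at 0.957 and 0.8298 CPM and 9.56 and 7.07 CPM (adjusted p = 0.0322), while the receptor itself, Egfr, was at 402 and 215 CPM and 504 and 447 CPM and did not pass (adjusted p = 0.615). Of 15 immediate early genes, Egr1 rose, from 18.8 and 13.5 CPM to 158 and 205 CPM (log2 fold change 3.49, SE 0.59, adjusted p = 0.00559), and the list median was -0.17. The cyclin Ccnd1, which links growth signals to the cell cycle, was at 23.3 and 15.9 CPM and 72.4 and 55.7 CPM (adjusted p = 0.0695). Of the 6 rises among Dusp5, Dusp6, Etv4, Igfbp1, Btc and Egr1, 2 remained without WT replicate 1, 3 without DEN_WT replicate 1 and 1 without DEN_WT replicate 2, and each missed the threshold without WT replicate 2, with adjusted p up to 0.357 for Etv4. Btc, Egr1, Egfr and Ccnd1 overlap another gene of the table.

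Among targets of the tumour suppressor p53, 7 of 24 rose, and the list median was 0.95. The CDK inhibitor Cdkn1a (p21) was at 1.15 and 2.397 CPM in WT and 35.5 and 59.8 CPM in DEN_WT (log2 fold change 4.74, SE 0.72, adjusted p = 0.00327). Phlda3, which inhibits Akt at the membrane, was at 2.49 and 2.77 CPM and 15.5 and 22.4 CPM (log2 fold change 2.84, SE 0.47, adjusted p = 0.00507). The antiproliferative Btg2 was at 19.7 and 18.4 CPM and 132 and 108 CPM (log2 fold change 2.66, SE 0.45, adjusted p = 0.00539). Both DEN_WT libraries lay several-fold above both WT libraries for each of these genes. Psrc1, a microtubule-associated protein, had a larger ratio from a lower base, 0.383 and 0.0922 CPM against 13.8 and 28.97 CPM (log2 fold change 6.44, adjusted p = 0.00324). Ccng1, Trp53inp1 and the TNF-family receptor Eda2r also rose, with log2 fold changes of 1.97, 2.72 and 4.23. Mdm2, the ubiquitin ligase that degrades p53, was at 15.3 and 10.9 CPM and 23.1 and 32.5 CPM and did not pass (adjusted p = 0.192). Of the 7 rises among p53 targets, 2, 3, 4 and 3 remained without WT replicate 1, WT replicate 2, DEN_WT replicate 1 and DEN_WT replicate 2, with adjusted p up to 0.213 for Ccng1. Ccng1 and Eda2r were also lost without PR-SET7_LOBE replicate 2, and Ccng1 with a GC correction (adjusted p = 0.0995).

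Of 26 genes of G2 and mitosis, 7 rose and 1 fell, with a list median of 2.11. Cyclin B1, Ccnb1, had 0 counts in both WT libraries and 2.92 and 2.83 CPM in DEN_WT, at least 20.4-fold higher against 3 counts over the WT group, though 42.1% of its windows are shared with another gene. Cyclin A2, Ccna2, was at 0.383 and 0.0922 CPM and 3.896 and 3.89 CPM (log2 fold change 3.98, SE 0.88, adjusted p = 0.019). All 4 DEN_WT values of these cyclins lay between 2.83 and 3.90 CPM, so both genes were weakly expressed even where high. The cytokinesis factors Kif20a and Ect2 had 3 counts each over the WT group, which gives ratios of 13.5 (95% counting interval 4.32 to 68.0) and 19.5 (6.36 to 96.9). Ccnb2, Cdk1, the kinase that starts mitosis, and the topoisomerase Top2a rose as well, by log2 fold changes of 4.33, 3.04 and 2.91. The proliferation marker Mki67 was at 1.34 and 0.645 CPM and 9.83 and 5.12 CPM (adjusted p = 0.0621). Going the other way, the kinetochore protein Cenpf was at 7.94 and 31.8 CPM in WT and 3.72 and 2.38 CPM in DEN_WT (log2 fold change -2.70, SE 0.74, adjusted p = 0.0441).

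Among 29 genes of S phase and origin licensing, 1 rose and 1 fell, near the shares of all protein-coding genes (2.97% and 4.27%). Rrm2, the regulated subunit of ribonucleotide reductase, was at 1.91 and 2.95 CPM in WT and 12.7 and 10.8 CPM in DEN_WT (log2 fold change 2.26, SE 0.54, adjusted p = 0.0256). Thymidine kinase Tk1, of the same nucleotide supply, was at 57.04 and 61.96 CPM and 13.6 and 11.1 CPM (log2 fold change -2.27, SE 0.45, adjusted p = 0.0122). The groups did not overlap for either gene. Of 10 calls among cell cycle genes, 2, 2, 1 and 1 remained without WT replicate 1, WT replicate 2, DEN_WT replicate 1 and DEN_WT replicate 2, with adjusted p up to 0.366 for Cenpf. Top2a and Cenpf were also lost without PR-SET7_LOBE replicate 2, and Cenpf without PR-SET7_LOBE replicate 3 (adjusted p = 0.0578). Ccna2, Kif20a, Ect2, Top2a and Tk1 overlap another gene of the table.

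Genes of the unfolded protein and ATF4 response were led by the enzymes that make non-essential amino acids. ATF4 is a bZIP factor translated under amino acid or endoplasmic reticulum stress, and it binds composite elements of the form TGATGNAA in its targets. Of 24 listed genes 6 rose, and the list median was 0.97. Asparagine synthetase, Asns (mm9 chr6:7625169-7643254), had 1 count over the WT group and 420 over the DEN_WT group, at 0 and 0.0922 CPM against 14.96 and 22.2 CPM. The ratio was 395, and its 95% counting interval ran from 70.6 to 15700.0 (adjusted p = 0.00321). The promoters of Asns and of Atf3, a bZIP gene downstream of ATF4 that also rose, are shown because they were the 2 among the 6 risen genes whose 250-base window before the start holds TGATGNAA on either strand. Sequences are from RefSeq on GRCm38.p6, 5′ to 3′ on the gene's strand, with the match in capitals, at chr6:7693210-7693459 (minus strand) for Asns and chr1:191183334-191183583 (minus strand) for Atf3.
Asns: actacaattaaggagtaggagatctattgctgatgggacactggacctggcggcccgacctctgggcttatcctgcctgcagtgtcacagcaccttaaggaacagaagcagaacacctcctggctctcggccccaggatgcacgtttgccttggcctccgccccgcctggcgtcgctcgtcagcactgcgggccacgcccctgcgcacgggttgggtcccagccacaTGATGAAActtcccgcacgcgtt
Atf3: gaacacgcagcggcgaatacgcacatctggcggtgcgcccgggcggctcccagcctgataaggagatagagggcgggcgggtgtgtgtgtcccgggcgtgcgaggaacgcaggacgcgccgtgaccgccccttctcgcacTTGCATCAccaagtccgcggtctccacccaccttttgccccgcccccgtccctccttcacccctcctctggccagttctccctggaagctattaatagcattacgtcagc
The match lies 16 to 23 bases before the start of Asns and 103 to 110 bases before that of Atf3, where it is on the other strand. Of 22 listed genes with a window, 5 held a match in at least 1 window, and 3.45% of all 32851 windows did. These shares differ in unit, genes against single windows, and some listed genes have more than 1 window. The list was made up of genes of this response, and enrichment of the match was not tested. Psat1, Phgdh, Dnajb9 and Xbp1 rose without these letters in their windows.

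The serine pathway enzymes rose with Asns. Psat1, which makes phosphoserine, was at 0.383 and 0.8298 CPM in WT and 14.6 and 36.2 CPM in DEN_WT (log2 fold change 5.36, SE 0.85, adjusted p = 0.00411). Phgdh, the first enzyme of serine synthesis, was at 0.383 and 0.369 CPM and 7.62 and 35.5 CPM (log2 fold change 5.80, SE 0.98, adjusted p = 0.00541), with 63.1% of its windows shared. DEN_WT replicate 2 was the higher library for Asns, Psat1 and Phgdh. The chaperone partner Dnajb9 was at 10.8 and 17.1 CPM and 98.3 and 104 CPM (log2 fold change 2.86, SE 0.66, adjusted p = 0.0235). Atf3 was at 2.105 and 1.84 CPM and 7.88 and 11.8 CPM (adjusted p = 0.0425), and Xbp1, a factor of the unfolded protein response, at 238 and 277 CPM and 626 and 905 CPM (log2 fold change 1.57, adjusted p = 0.0464). Atf4 itself (adjusted p = 0.152), the pseudokinase Trib3 (0.0569) and the chaperone Hspa5 (0.153) did not pass, with log2 fold changes of 0.94, 2.06 and 1.58. Of the 6 rises in the ATF4 list, 2, 3, 3 and 2 remained without WT replicate 1, WT replicate 2, DEN_WT replicate 1 and DEN_WT replicate 2, with adjusted p up to 0.333 for Xbp1. Xbp1 was also lost without PR-SET7_LOBE replicate 2 or 4, and Atf3 without PR-SET7_LOBE replicate 2. With a GC correction 9 genes of the list rose.

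Other genes among the 12 highest belonged to no single pathway. Gliomedin, Gldn, an adhesion protein of peripheral nerve, was at 0.191 and 0.0922 CPM in WT and 24.97 and 52.5 CPM in DEN_WT, a ratio of 275 (95% counting interval 93.8 to 1340.0, adjusted p = 0.00166). Akr1c18, a progesterone-metabolising reductase, was at 0.383 and 0.277 CPM and 64.8 and 103 CPM (log2 fold change 7.95, SE 1.02, adjusted p = 0.00209). Both were close to silent in each WT library. The leukotriene-forming lipoxygenase Alox5 was at 0.191 and 0.277 CPM and 14.5 and 27.1 CPM (log2 fold change 6.40, adjusted p = 0.00429). Wfdc15b, a small secreted protein of the WAP family, was at 0.191 and 0.553 CPM and 28.8 and 33.8 CPM (log2 fold change 6.34, adjusted p = 0.00321). The axonemal dynein gene Dnaic1, the microvillus protein Vil1 and the kinesin Kif5c rose by log2 fold changes of 6.73, 6.40 and 6.25. Vil1 and Kif5c missed the threshold without any 1 of the WT and DEN_WT libraries (adjusted p up to 0.172 for Vil1), and the other 5 kept it each time. Gldn, Dnaic1, Vil1 and Kif5c overlap another gene of the table.

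**Figure D3:**
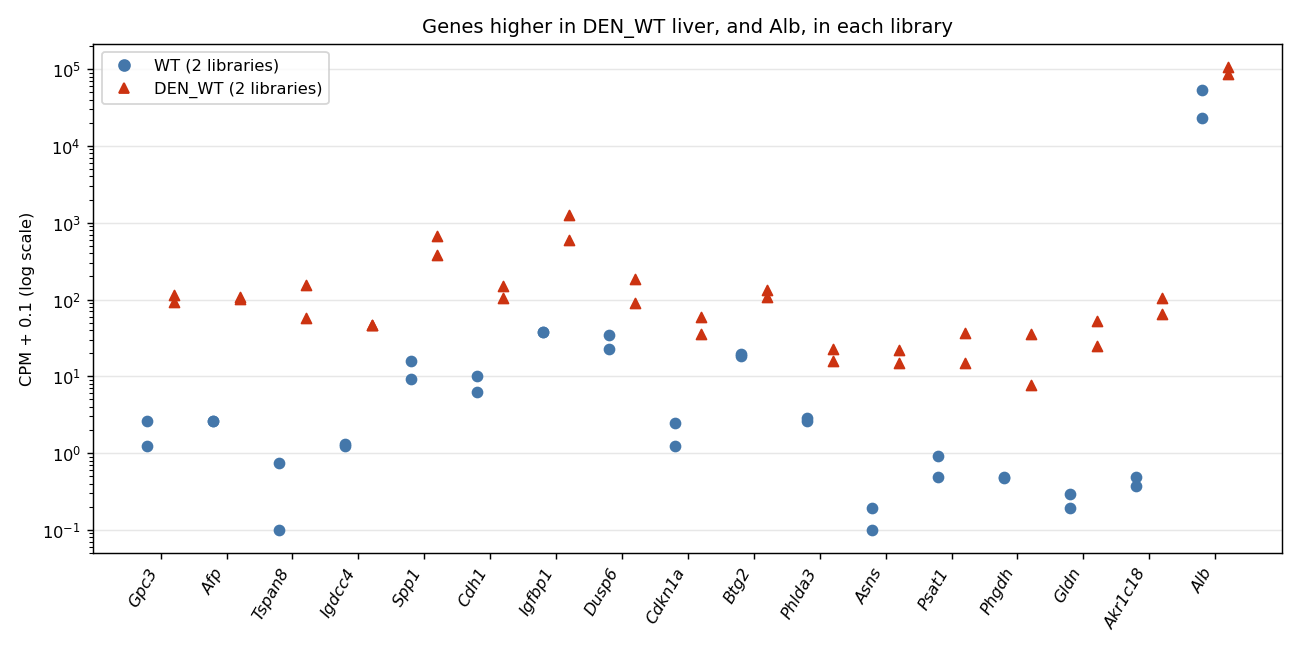
Levels of genes that rose, with Alb as a reference, in each WT (circles) and DEN_WT (triangles) library, as CPM + 0.1 on a log axis. Most WT points lie near or below 3 CPM, and the 2 DEN_WT points of each risen gene lie above both of its WT points.

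The 28 secreted liver proteins summed to 219127.6 and 247935.4 CPM in WT and 214892.6 and 252473.9 CPM in DEN_WT, so the sums were interleaved. Single members went both ways. In both DEN_WT libraries 10 were above and 12 below both WT libraries, where 70.4% of all protein-coding genes showed no overlap. Serpina1a was at 50196.6 and 56619.7 CPM in WT and 9930.2 and 17815.2 CPM in DEN_WT (adjusted p = 0.0994). The complement factor Cfb was the 1 member that fell (81.4% of its windows are shared with another gene). Albumin, Alb, was at 23045.5 and 52997.5 CPM in WT and 85339.7 and 105981.9 CPM in DEN_WT (adjusted p = 0.389). For 16 hepatocyte transcription factors the sums were 3622.2 and 3043.5 CPM in WT against 1990.6 and 1747.9 CPM in DEN_WT. By edgeR 0 of the 16 passed, 4 were lower at an unadjusted p under 0.05, DESeq2 called 1 lower and limma voom 8. The nuclear receptor Hnf4a was at 1028 and 1011 CPM and 792 and 638 CPM (adjusted p = 0.49). The pericentral enzymes Glul (adjusted p = 0.141) and Cyp2e1 (0.516) did not pass. Cfb, Hnf4a and Glul overlap another gene of the table.

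Of 36 P450 genes of families 1 to 4, 4 fell and 1 rose, with a list median of -0.97. With a GC correction, under which 35 could be fitted, 10 fell. Nr1i3 (CAR), the nuclear receptor that induces detoxifying enzymes, was at 172 and 215 CPM in WT and 26.5 and 33.03 CPM in DEN_WT (log2 fold change -2.70, SE 0.42, adjusted p = 0.00358). The aryl hydrocarbon receptor target Cyp1a1 was at 30.7 and 79.9 CPM and 2.48 and 1.85 CPM (log2 fold change -4.67, SE 0.93, adjusted p = 0.0123). Both genes were lower in each DEN_WT library than in either WT library. Cyp2c39, Cyp3a44 and Cyp4a10 fell by log2 fold changes of -3.38, -2.72 and -2.18. Cyp2a4, a steroid hydroxylase that is higher in female than in male liver, went the other way, from 71.4 and 160.2 CPM to 3723 and 1909 CPM (log2 fold change 4.60, SE 0.96, adjusted p = 0.0152), with 38.0% of its windows shared with another gene.

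Of 23 lipogenic and lipid droplet genes 3 fell and 2 rose. Acacb, the acetyl-CoA carboxylase that controls entry of fatty acids into mitochondria, was at 538 and 730.5 CPM in WT and 55.3 and 100.5 CPM in DEN_WT (log2 fold change -3.02, SE 0.53, adjusted p = 0.00683). The lipogenic regulator Thrsp was at 1474 and 3696 CPM and 222 and 196 CPM (log2 fold change -3.63, SE 0.75, adjusted p = 0.0147), and fatty acid synthase, Fasn, at 2305 and 4175 CPM and 479 and 837 CPM (adjusted p = 0.033). For these genes WT replicate 2 was the highest library. Lipoprotein lipase, Lpl, which is low in adult hepatocytes, was at 19.3 and 5.07 CPM and 163 and 238 CPM (log2 fold change 4.04, SE 0.96, adjusted p = 0.0259). The fatty acid carrier Fabp4 rose as well, with a log2 fold change of 2.44.

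Of 21 genes of fatty acid oxidation, 2 fell: the coactivator Ppargc1a, from 40.2 and 61.3 CPM to 6.29 and 6.62 CPM (log2 fold change -2.97, SE 0.54, adjusted p = 0.0077), and the peroxisomal thiolase Acaa1b. Of 28 urea cycle and amino acid genes 2 fell. Argininosuccinate synthase, Ass1, was at 1953 and 1949 CPM in WT and 197 and 146 CPM in DEN_WT (log2 fold change -3.51, SE 0.85, adjusted p = 0.0287), and proline dehydrogenase, Prodh, had a log2 fold change of -2.75. Of 14 genes of gluconeogenesis and glycogen 1 fell, the liver pyruvate kinase Pklr (log2 fold change -2.12), and 1 rose, Ugp2, which makes UDP-glucose (2.64). Of 12 glycolytic isozymes 1 fell, the enolase Eno1 (-2.44). Of 27 NRF2 targets and glutathione enzymes 1 fell, the malic enzyme Me1 (-2.66). The medians of these lists were -0.75, -0.12 and -0.49, and that of the glycolytic isozymes was 0.15 with a GC correction. Over all protein-coding genes 4.27% fell. Of 19 calls among these metabolic genes, Nr1i3 and Cyp1a1 included, 8 remained without WT replicate 1, 2 without DEN_WT replicate 2 and 3 without WT replicate 2, and each missed the threshold without DEN_WT replicate 1, with adjusted p up to 0.345 for Me1. Without PR-SET7_LOBE replicate 2, 13 remained, and Ugp2 was lost without PR-SET7_LOBE replicate 4. A GC correction lost Fasn (adjusted p = 0.0964) and Ugp2 (0.0798). Acaa1b, Ass1, Eno1, Me1, Cyp3a44, Cyp4a10 and Cyp2a4 share at least 20% of their windows with another gene, and Acaa1b, Acacb, Nr1i3, Prodh, Me1, Pklr, Ugp2 and Cyp4a10 overlap one.

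Of 20 tested markers of bile ducts and progenitor cells, 5 rose. Osteopontin, Spp1, a matrix phosphoprotein of ductal and tumour cells, was at 15.5 and 9.04 CPM in WT and 383 and 679 CPM in DEN_WT (log2 fold change 5.43, SE 0.72, adjusted p = 0.00215). Krt23, a type I keratin, was at 0 and 0.922 CPM and 19.6 and 8.302 CPM (log2 fold change 4.87, adjusted p = 0.022). Prom1, Cldn7 and Bicc1 rose by log2 fold changes of 4.51, 2.62 and 2.14. Defining ductal genes did not pass: Sox9 was at 7.56 and 3.504 CPM and 11.2 and 12.1 CPM (adjusted p = 0.23), and Epcam at 1.53 and 0.553 CPM and 1.505 and 1.41 CPM (adjusted p = 0.734). The summed levels of the ductal list overlapped, at 1618.3 and 1184.0 CPM in WT and 1523.1 and 2039.9 CPM in DEN_WT. In bulk samples such as these, fewer cells of a type and less RNA per cell cannot be told apart. E-cadherin, Cdh1, an epithelial adhesion molecule listed with periportal genes, was at 6.22 and 9.96 CPM and 104 and 148 CPM (log2 fold change 3.96, SE 0.58, adjusted p = 0.00293).

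Stellate cell and matrix genes had a median of 1.17, but 2 of 30 passed, and 7 with a GC correction. They were Thbs1, an activator of latent TGF-beta, at 0.957 and 0.645 CPM in WT and 4.96 and 10.7 CPM in DEN_WT (adjusted p = 0.0122), and lumican, Lum, at 1.91 and 2.49 CPM and 15.2 and 9.01 CPM (adjusted p = 0.0476). The list summed to 550.2 and 548.3 CPM in WT and to 1201.2 and 1498.4 CPM in DEN_WT, and the 4 PR-SET7_LOBE sums ran from 505.9 to 1342.5 CPM. Collagen Col1a1 was at 7.18 and 2.397 CPM and 35.95 and 7.68 CPM (adjusted p = 0.194), with DEN_WT replicate 1 well above the rest. Among 24 endothelial genes 1 rose, Cd34, by a log2 fold change of 2.40, where 2.97% of all protein-coding genes rose. The list median was -0.21. Of 9 rises among Spp1, Krt23, Prom1, Cldn7, Bicc1, Cdh1, Thbs1, Lum and Cd34, 2, 3, 3 and 2 remained without WT replicate 1, WT replicate 2, DEN_WT replicate 1 and DEN_WT replicate 2, with adjusted p up to 0.292 for Cldn7. Without PR-SET7_LOBE replicate 2 Prom1, Bicc1 and Lum were lost, and without PR-SET7_LOBE replicate 4 Prom1 and Lum. A GC correction lost Lum (adjusted p = 0.0559) and Cd34 (0.121). Bicc1, Cd34 and Col1a1 overlap another gene of the table.

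Among 21 tested T and NK cell genes 2 fell, and among 18 B and plasma cell genes 2 fell. Cd3d, a chain of the T cell receptor complex, was at 13.97 and 13.6 CPM in WT and 0.354 and 0.265 CPM in DEN_WT (log2 fold change -5.42, SE 0.76, adjusted p = 0.00237). The other chains of that complex were near 0 everywhere, Cd3e at 0.957 and 0.645 CPM and 0.354 and 0.707 CPM and Cd3g at 0 counts in WT and 0.354 and 0.442 CPM in DEN_WT. The B cell lectin Cd22 was at 26.3 and 30.98 CPM and 2.302 and 0.972 CPM (log2 fold change -4.12, SE 0.56, adjusted p = 0.00231). The B cell receptor chains Cd79a and Cd79b were under 1 CPM in all 4 libraries. Cd8b1 and Fcer2a also fell, with log2 fold changes of -3.51 and -5.51. The medians of the T and NK cell list (0.10) and of the B and plasma cell list (0.19) were above 0, with 12 of 21 and 10 of 18 genes above 0. Of 21 tested T and NK cell genes 11 were under 1 CPM in all 4 libraries, and all 25 listed genes summed to 54.1 and 37.3 CPM in WT, 27.2 and 22.3 CPM in DEN_WT and 48.5 to 75.6 CPM in PR-SET7_LOBE. Without Cd3d and Cd8b1 these sums overlapped, at 35.2 and 18.4 CPM in WT and 26.4 and 21.6 CPM in DEN_WT. The B and plasma cell list of 19 summed to 1251.1 and 553.7 CPM in WT and 352.5 and 404.4 CPM in DEN_WT.

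Csf3r, the G-CSF receptor of neutrophils, was at 22.6 and 18.4 CPM in WT and 3.54 and 2.03 CPM in DEN_WT (log2 fold change -2.88, SE 0.49, adjusted p = 0.00577), and the chemokine receptor Cxcr2 at 11.96 and 18.9 CPM and 2.302 and 1.41 CPM (adjusted p = 0.0456). These were the 2 of 10 neutrophil genes that passed. The list median was -0.52, with 3 genes above 0 and 7 below. It ran from -2.745 with the strict filter to 1.54 without WT replicate 1. Among those above 0, Ngp had 0 counts in WT and 13 in DEN_WT. The list as a whole thus had no steady direction. All 14 listed genes summed to 44.5 and 48.9 CPM in WT, 13.99 and 7.07 CPM in DEN_WT and 40.3 to 64.0 CPM in PR-SET7_LOBE. Most of the WT sum came from Csf3r and Cxcr2, and the other 12 genes summed to 9.95 and 11.5 CPM in WT, 8.15 and 3.62 CPM in DEN_WT and 14.1 to 38.5 CPM in PR-SET7_LOBE. Of 23 macrophage genes 2 rose, Gpnmb, a glycoprotein of lipid-laden macrophages, from 0.383 and 1.199 CPM to 26.1 and 9.19 CPM (adjusted p = 0.0193), and the integrin Itgax, from 1.53 and 1.199 CPM to 5.76 and 5.299 CPM (adjusted p = 0.0421). The Kupffer cell lectin Clec4f was at 471 and 139 CPM and 115 and 86.8 CPM (adjusted p = 0.1).

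Of 27 acute phase genes 1 rose and 1 fell, near the shares of all protein-coding genes (2.97% and 4.27%). The list median was -1.12, with 8 genes above 0 and 19 below. In both DEN_WT libraries 16 were below both WT libraries, against 35.2% of all protein-coding genes, and 6 were above. The list summed to 55078.3 and 18600.9 CPM in WT, far apart, and to 14028.6 and 11472.2 CPM in DEN_WT. The interleukin-1 receptor antagonist Il1rn was at 4.402 and 2.67 CPM in WT and 31.5 and 53.8 CPM in DEN_WT (log2 fold change 3.59, SE 0.61, adjusted p = 0.00552). Serum amyloid Saa3 was at 144 and 39.3 CPM and 7.17 and 3.18 CPM (adjusted p = 0.0351), with the WT libraries far apart. Of 29 interferon-stimulated genes 2 rose, Ifi44 and the immunity GTPase Iigp1, which was at 92.6 and 59.3 CPM and 508 and 539 CPM, and 1 fell, Xaf1. The list median was 1.04. Of 14 calls among immune genes, those on lymphocytes, myeloid cells and Cfb included, 7, 6, 5 and 5 remained without WT replicate 1, WT replicate 2, DEN_WT replicate 1 and DEN_WT replicate 2, with adjusted p up to 0.274 for Cxcr2. Cxcr2, Itgax, Saa3 and Iigp1 were lost without PR-SET7_LOBE replicate 2, and Iigp1 without PR-SET7_LOBE replicate 4. A GC correction lost Ifi44 (adjusted p = 0.051) and Iigp1 (0.0538).

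The 12 protein-coding genes with the lowest log2 fold changes under the naming rule, which asks for a mean log2 CPM of at least 1, were 4 histones, the MHC class I gene H2-M10.2, Olig3, Pax1, Fgf10, Scrt2, Cabp5, Nipal4 and Serpina3b. H2-M10.4 and H2-M10.5, whose means were below that level, had log2 fold changes of -10.275 and -8.452, with 0 counts and 1 count in DEN_WT. The lowest of the 12 was Hist1h2bp, at -9.231. Olig3, a neural bHLH factor, was at 15.5 and 31.6 CPM in WT and 0.177 and 0.177 CPM in DEN_WT, while the PR-SET7_LOBE libraries gave 10.8, 5.17, 3.44 and 8.74 CPM (log2 fold change -6.97, SE 0.84, adjusted p = 0.00177). Fgf10, a mesenchymal growth factor, was at 29.96 and 25.9 CPM and 0.266 and 0.177 CPM (log2 fold change -6.91, SE 0.75, adjusted p = 0.00166), and the neural repressor Scrt2 at 25.6 and 18.7 CPM and 0.177 and 0.177 CPM. Both DEN_WT libraries were near the level of 3 counts for each of these genes. Pax1, Cabp5 and Nipal4 had 2 or 3 counts over the DEN_WT group, with ratios of WT over DEN_WT of 154 (95% counting interval 52.5 to 751), 175 (48.0 to 1450.0) and 165 (56.1 to 803). The serpin Serpina3b was at 47.8 and 40.7 CPM and 0.354 and 0.353 CPM, and at 42.4, 18.4, 8.08 and 36.6 CPM in PR-SET7_LOBE. Among Hox genes, which set body position in embryos, 13 of 40 were tested and 7 of those were under 1 CPM in all 4 libraries. Hoxb9, at 18.8 and 26.2 CPM and 0.177 and 0.442 CPM, and Hoxd11, at 139 and 24.1 CPM and 0.974 and 0.883 CPM, fell. Pax1, Fgf10 and Hoxd11 overlap another gene of the table.

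The messenger RNAs of replication-dependent histones end in a stem-loop rather than a poly(A) tail, while the libraries were made from poly(A) RNA. Whether the selection of poly(A) RNA had a part in the histone differences was not tested. Of 68 listed histone genes 48 were tested and 28 fell, and 42 of the 48 were lower in both DEN_WT libraries than in both WT libraries, against 35.2% of all protein-coding genes. Summed levels were 643.0 and 871.7 CPM in WT, 317.6 to 1334.1 CPM in PR-SET7_LOBE and 121.1 and 144.0 CPM in DEN_WT. Hist1h2bp had 1 count over the DEN_WT group and 21.1 and 45.9 CPM in WT, a ratio of 763 (95% counting interval 136 to 30200.0). Hist1h2bn, also with 1 count, had a ratio of 667 (119 to 26400.0), and Hist2h2ac, with 3, had 163 (55.5 to 794). Hist1h2bk was at 27.7 and 46.8 CPM and 0.177 and 0.265 CPM, and Hist1h2bf at 15.3 and 26.1 CPM and 0.177 and 0.177 CPM. Histone genes are near copies of each other (74.2% of the windows of Hist1h2bk are shared), so the counts of single members are uncertain. Hist1h1c, a linker histone, was at 46.2 and 19.3 CPM in WT and 38.1 and 45.3 CPM in DEN_WT, so the fall did not take in the whole list. Of the 14 falls among these histones, developmental genes, Cabp5, Nipal4 and Serpina3b, 13 remained without each WT and DEN_WT library, and Hist2h2ac was lost each time, with adjusted p up to 0.235, and without PR-SET7_LOBE replicate 2 (adjusted p = 0.0541).

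**Figure D4:**
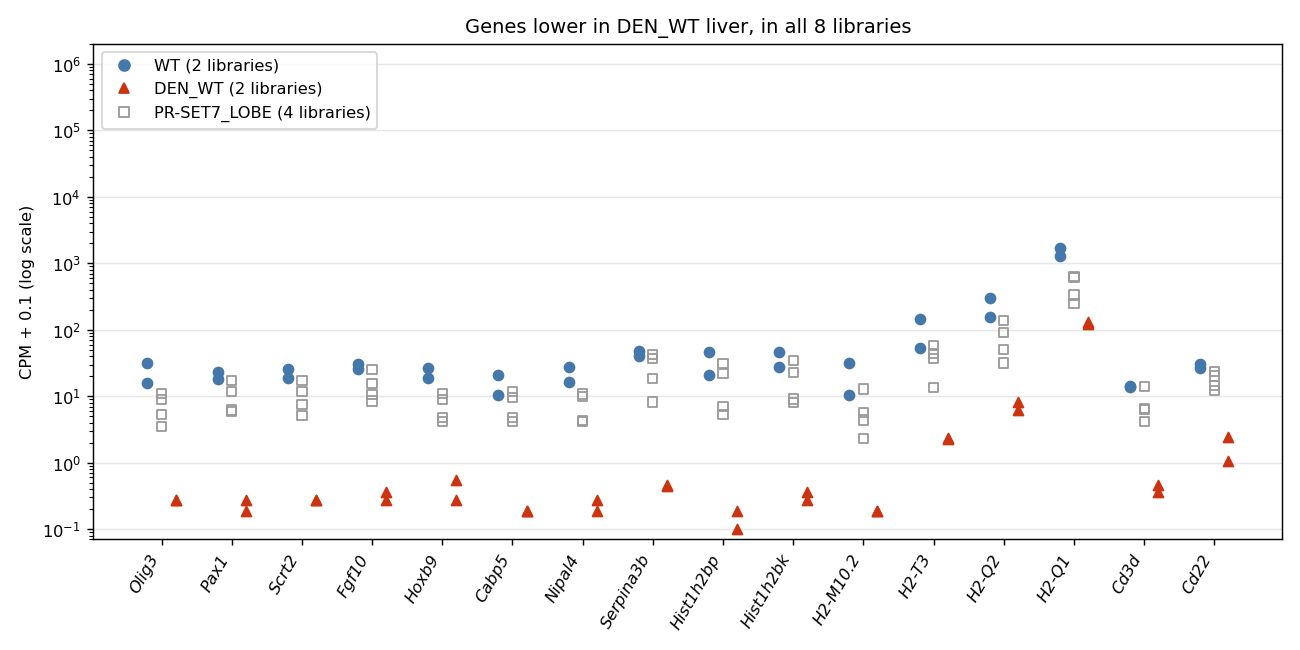
Levels of genes that fell, in each WT (circles), DEN_WT (triangles) and PR-SET7_LOBE (squares) library, as CPM + 0.1 on a log axis. The DEN_WT points of the developmental genes and histones lie under 1 CPM, and the PR-SET7_LOBE points lie on the side of the WT points for most of them.

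MHC class I genes, whose classical members encode the heavy chains that show peptides to T cells, are a list added after values were seen. Of 24 listed genes 21 were tested and 18 fell. The labels do not say whether the C57BL6/CBA livers carried the same MHC alleles. Among non-classical members, H2-T3 was at 52.8 and 145 CPM in WT and 2.21 and 2.21 CPM in DEN_WT (log2 fold change -5.47, SE 0.78, adjusted p = 0.00256), and H2-Q2 at 154 and 301 CPM and 6.198 and 8.13 CPM (log2 fold change -4.99, adjusted p = 0.00342). H2-Q1, far more abundant, was at 1290.1 and 1696 CPM and 122 and 131 CPM (log2 fold change -3.56, SE 0.61, adjusted p = 0.00577). The groups did not overlap for any of these 3 genes. H2-T22, H2-T23 and H2-Q7 fell, with log2 fold changes of -2.81, -2.49 and -2.35. The H2-M genes reached the floor: H2-M10.4 had 0 counts in DEN_WT and was at least 109-fold lower there, and H2-M10.2 and H2-M11 had ratios of WT over DEN_WT of 242 (95% counting interval 66.5 to 2000.0) and 216 (38.3 to 8560.0).

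The classical genes H2-K1 and H2-D1 did not pass. H2-K1 was at 2168 and 1828 CPM in WT and 1632 and 1923 CPM in DEN_WT (log2 fold change -0.17, SE 0.59, adjusted p = 0.873), and the log2 fold change of H2-K1 turned positive with a strict count filter (0.0157) and with a GC correction (0.34). H2-D1 was at 1564 and 1654 CPM and 745 and 756 CPM, with no overlap (log2 fold change -1.10, SE 0.60, adjusted p = 0.249). All 21 tested genes of the list had a log2 fold change below 0, and limma voom called 20 of them lower. The sum over the MHC class I list was 18372.4 and 18440.5 CPM in WT, 7466.8 and 7485.5 CPM in DEN_WT and 6429.5 to 17090.1 CPM in PR-SET7_LOBE. Of 9 falls among H2-M10.2, H2-M10.4, H2-M11, H2-T3, H2-Q1, H2-Q2, H2-T22, H2-T23 and H2-Q7, 7, 6, 5 and 5 remained without WT replicate 1, WT replicate 2, DEN_WT replicate 1 and DEN_WT replicate 2, with adjusted p up to 0.217 for H2-T23. H2-T22 and H2-Q7 share at least 20% of their windows with another gene, and H2-T22 and H2-T23 overlap one.

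The 79 listed genes of cytosolic ribosomal proteins summed to 13486.9 and 12333.1 CPM in WT, 10160.3 to 15904.1 CPM in PR-SET7_LOBE and 6781.1 and 7066.1 CPM in DEN_WT, where the sums were the lowest of the 8 libraries. Of the 77 tested 16 fell, and the list median was -1.21. Rpl31, of the large subunit, was at 25.6 and 32.1 CPM in WT and 4.69 and 5.56 CPM in DEN_WT (log2 fold change -2.49, SE 0.40, adjusted p = 0.00421). Rpl11, which also binds Mdm2, Rpl19 and Rpl3 fell too, with log2 fold changes of -2.63, -2.18 and -2.52. Each of these 4 genes shares at least 20% of its windows with other genes (79.3% for Rpl19), and whether reads were divided between them and their pseudogenes was not tested. In the same libraries 144 pseudogenes of ribosomal proteins, a list added after values were seen, summed to 537.5 and 956.6 CPM in WT and to 1296.8 and 1725.4 CPM in DEN_WT, and of the 86 tested 20 rose and 2 fell. Without genes of shared sequence the median log2 fold change of ribosomal protein pseudogenes turned from 1.60 to -0.93 over the 15 that were left.

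The polyubiquitin gene Ubb was at 5249 and 6821 CPM in WT and 836 and 872 CPM in DEN_WT (adjusted p = 0.0317), with 53.6% of its windows shared. Lars2, the leucyl-tRNA synthetase of mitochondria, was at 5582 and 6678 CPM and 1223 and 449 CPM (log2 fold change -2.87, SE 0.70, adjusted p = 0.0285). Ubb and Lars2 were named after their values were seen. Of 6 falls among Rpl31, Rpl11, Rpl19, Rpl3, Ubb and Lars2, 2 remained without WT replicate 1 and 2 without WT replicate 2, and each missed the threshold without either DEN_WT library, with adjusted p up to 0.279 for Lars2. Ubb was also lost without PR-SET7_LOBE replicate 2 (adjusted p = 0.051). Rpl31, Rpl3 and Rpl19 overlap another gene of the table.

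**Figure D5:**
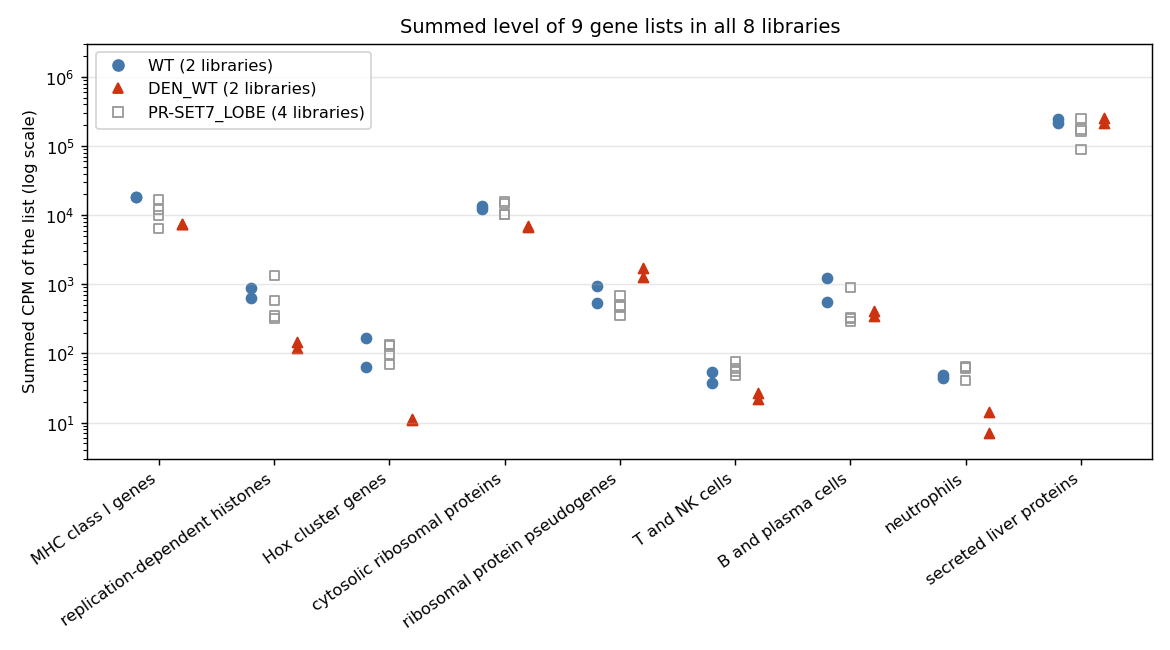
Summed CPM of gene lists in each WT (circles), DEN_WT (triangles) and PR-SET7_LOBE (squares) library on a log axis. The DEN_WT sums of histones, ribosomal proteins and neutrophil genes lie below all other libraries, and those of the ribosomal protein pseudogenes above them.

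The sex of the mice is not in the labels. Xist, the RNA of the inactive X, was under 1 CPM in the WT and DEN_WT libraries, at 0.574 and 0.8298 CPM and 0.531 and 0.5299 CPM. Of 4 Y-linked genes 2 passed. Uty, a histone demethylase homologue, was at 0.766 and 0.645 CPM in WT and 9.74 and 8.83 CPM in DEN_WT (log2 fold change 3.70, SE 0.81, adjusted p = 0.0182), and the helicase Ddx3y at 5.65 and 4.42 CPM and 45.1 and 32.3 CPM (log2 fold change 2.94, SE 0.80, adjusted p = 0.0433). Both were detected in each of the 4 libraries. Eif2s3y was at 8.13 and 8.94 CPM and 40.3 and 28.4 CPM (adjusted p = 0.162) and Kdm5d at 7.37 and 5.72 CPM and 12.2 and 12.1 CPM (adjusted p = 0.494). The calls of Uty and Ddx3y were lost without any 1 of the WT and DEN_WT libraries (adjusted p up to 0.197 for Ddx3y), and that of Ddx3y with a GC correction (0.0726).

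Pseudogenes, kept apart from the protein-coding genes, rose far more often. Of 1292 tested 408 were higher in DEN_WT (31.6%) and 51 lower (3.95%), and their median log2 fold change was 2.89. The share that rose was 31.7% among pseudogenes that share at least 20% of their 50-base windows with another gene and 31.4% among the others. Gm5778 was at 0.383 and 0.8298 CPM in WT, 0.186 to 0.67 CPM in PR-SET7_LOBE and 56.8 and 76.2 CPM in DEN_WT (log2 fold change 6.75, SE 0.67, adjusted p = 0.00166). Gm14078, Gm6252 and Gm12715 rose too, with DEN_WT levels of 52.7 and 77.5, 45.7 and 52.9 and 45.7 and 63.2 CPM and log2 fold changes of 5.62, 5.39 and 3.79. Gm6252 and Gm12715 were also higher in PR-SET7_LOBE than in WT, at 2.54 to 4.46 CPM against 0.574 and 1.75 CPM and at 9.19 to 12.6 CPM against 3.25 and 4.61 CPM. In the other direction, Rdh18-ps, a retinol dehydrogenase pseudogene, was at 317 and 747 CPM and 13.6 and 11.04 CPM, Gm5069 at 229.6 and 601 CPM and 9.12 and 8.13 CPM, and 3000002C10Rik at 132 and 293 CPM and 5.76 and 6.62 CPM. Gm6498 fell too, with a log2 fold change of -5.53. All named pseudogenes other than 3000002C10Rik overlap another gene of the table, so their counts are uncertain. Among protein-coding genes that share at least 20% of their windows, 10.8% fell and 3.98% rose, against 3.82% and 2.90% of the others. Higher pseudogenes numbered 79 without WT replicate 1, 148 without DEN_WT replicate 1, 65 without DEN_WT replicate 2 and 637 without PR-SET7_LOBE replicate 1. Lower pseudogenes numbered 20 without WT replicate 2, 12 without either DEN_WT library and 81 without PR-SET7_LOBE replicate 1.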

How the data were processed

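Poly(A) RNA of mouse liver was read on an Ion Proton, per the labels' protocols. The authors deposited raw counts per gene in a table of all 8 libraries. TopHat2 2.0.9, Cufflinks, DESeq and the mm9 build are named in the submitters' processing notes. How reads were counted (tool, annotation, strand, multiple hits) is not given in the sources used here, so genes that overlap or have near copies are uncertain. Total counts were 13757466 and 16108081 in WT and 10120058 and 10802335 in DEN_WT, at which 3 counts equal 0.218, 0.186, 0.296 and 0.278 CPM before scaling. Intervals and floors cover counting error only, since amplified reads may repeat a molecule.

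Genes were filtered with filterByExpr, scaled by TMM and tested with edgeR 4.0.16 (R 4.3.3; robust quasi-likelihood, all 8 libraries in 1 fit with group as the only term, Benjamini-Hochberg over 17362 genes). Genes rose, fell or changed at an adjusted p under 0.05. Gene type, transcript GC content and the share of 50-base windows found in other genes came from GENCODE M21, whose coordinates were not used; identifiers matched for 87.4% of 37583 listed genes. Named genes were the 12 highest and 12 lowest protein-coding genes that passed, did not overlap between groups and had a mean log2 CPM of at least 1 (predicted genes and receptor segments left out), per list up to the 4 members of smallest adjusted p, and 4 pseudogenes in each direction. Other named genes were chosen after their values were seen. Members and lists were chosen with earlier results of these data known. Same-numbered libraries did not deviate together (r = 0.06), so numbers were not taken as pairs. Alternatives were RLE and upper-quartile scaling, 2 filters, DESeq2 1.42.0, limma 3.58.1 voom, fits of 4 libraries with and without a replicate block, leaving out each library, the top 20 genes, overlapping genes or pseudogenes; a GC correction and a fit without genes of shared sequence were added after seeing the data. Only the main edgeR fit was run on simulated counts, and the other steps were not.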

Additional observations from a re-analysis of the deposited data

How the results depend on the processing

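Protein-coding genes higher in DEN_WT numbered 443 and those lower 637, pseudogenes 408 and 51. With only the WT and DEN_WT libraries these numbers were 2260, 2258, 737 and 82, and with the replicate block on those libraries 2086, 2046, 756 and 75; the block moved no count by more than 1.5 times against the same libraries without it, and since the numbers do not pair the libraries it is given only as a check. DESeq2 gave 1171, 1091, 564 and 83, and limma voom 2299, 2675, 811 and 118. Without a count filter 817 protein-coding genes were higher. Without overlapping genes 405 protein-coding genes and 27 pseudogenes were lower, and without genes of shared sequence 132 pseudogenes were higher and 22 lower, where fewer genes were tested. Other causes were not tested. Leaving out 1 library gave 48 to 1752 higher and 153 to 1803 lower protein-coding genes, and 65 to 637 higher and 12 to 81 lower pseudogenes. With the GC correction 547 protein-coding genes were higher, 324 of them also in the main fit, and 803 lower, 571 of them shared. Of 136 named genes that passed, 57 to 136 kept the call without 1 library 126 of 135 with the GC correction, 108 of 124 without pseudogenes, 129 of 136 without a count filter, 131 of 136 with upper-quartile scaling and 122 of 125 with the strict filter, and 0 changed sign in any alternative. Without genes of shared sequence 96 of 103 kept it, and Ccng1, Top2a, Cenpf, Bicc1, Lum, Cxcr2 and Ugp2 did not (adjusted p up to 0.0585). The fold of the called named genes moved by over 1.5 times for 25, 46, 14 and 18 of them without WT replicate 1, WT replicate 2, DEN_WT replicate 1 and DEN_WT replicate 2, and for 43 with the GC correction. The log2 fold change of H2-K1, which did not pass, turned positive with the strict filter (0.0157) and the GC correction (0.34). Of named genes that had not passed, 11 of 20 did with only the WT and DEN_WT libraries. With limma voom 12 of 23 did. Both DESeq2 and leaving out PR-SET7_LOBE replicate 1 gave 7 of 23, the GC correction 6, and leaving out pseudogenes 0. RLE, upper-quartile scaling, the strict filter and the GC correction placed the median log2 fold change of all genes between 0.12 and 0.14, against 0.06. With 2 libraries a group, a library left alone in its group takes its spread from the other groups. Genes at or under 3 counts in a group carry ratios whose intervals span more than 10 times.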
